A study of Mus musculus with 4 samples.

Results

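The genes of the TGFβ ligands and their receptors, Tgfb1, Tgfb2, Tgfb3, Tgfbr1, Tgfbr2 and Tgfbr3, were examined for binding of SMAD4 in mouse alveolar macrophages (AMs). Peaks were assigned to these 6 genes by position alone: a peak was counted for a gene when its summit lay in the gene body or within 50 kb of a curated RefSeq transcription start site (TSS) of that gene in mm10. The rule gave 18 of 16369 peaks in replicate 1 and 27 of 19015 peaks in replicate 2. Peaks of both replicates that overlapped by at least 1 bp formed 17 shared regions at these loci, of 10964 in all.

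SMAD4 was profiled by HT-ChIPmentation: crosslinked chromatin is pulled down with an antibody, and a transposase tags it with sequencing adapters while it is still on the beads. The AMs came from wild-type C57BL/6J mice of 9 weeks and were collected by bronchoalveolar lavage (BAL) and sorted by flow cytometry. The series holds 2 immunoprecipitated libraries and 2 input libraries of the same cells, and no other genotype, treatment or time. The inputs enter here only as the control level behind each peak, and neither the labels nor the methods say whether mice were pooled for a library or whether the libraries came from separate mice. Differences between the libraries may therefore be technical.

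TGFβ ligands are secreted in a latent form, bound to their own propeptide, and signal after release. The active dimer binds the type II receptor (Tgfbr2), a serine/threonine kinase that phosphorylates the type I receptor (Tgfbr1), and the type I receptor phosphorylates SMAD2 and SMAD3, which enter the nucleus with SMAD4. Tgfbr3, betaglycan, is a co-receptor without kinase activity that presents ligand, above all TGFβ2, to the signalling receptors. AMs depend on TGFβ for their development and maintenance, and the study profiled SMAD4 as the factor acting downstream of this signal.

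SMAD4 peaks lay at 1 ligand gene and at both kinase receptor genes in both libraries. Tgfb1 had 4 peaks in replicate 1 and 6 in replicate 2, Tgfbr1 had 9 and 11, and Tgfbr2 had 5 and 9. The number of shared regions was 4 at Tgfb1, 8 at Tgfbr1 and 5 at Tgfbr2. No peak was listed for Tgfb3 or Tgfbr3 in either library, and Tgfb2 had a single weak peak in replicate 2. At least 1 peak was thus present at 3 of the 6 genes in replicate 1 and at 4 in replicate 2, where 46.6% and 53.4% of 20923 protein-coding genes had one under the same rule. A shared region was present at 3 of the 6 genes, against 39.1% of protein-coding genes.

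**Figure D1:**
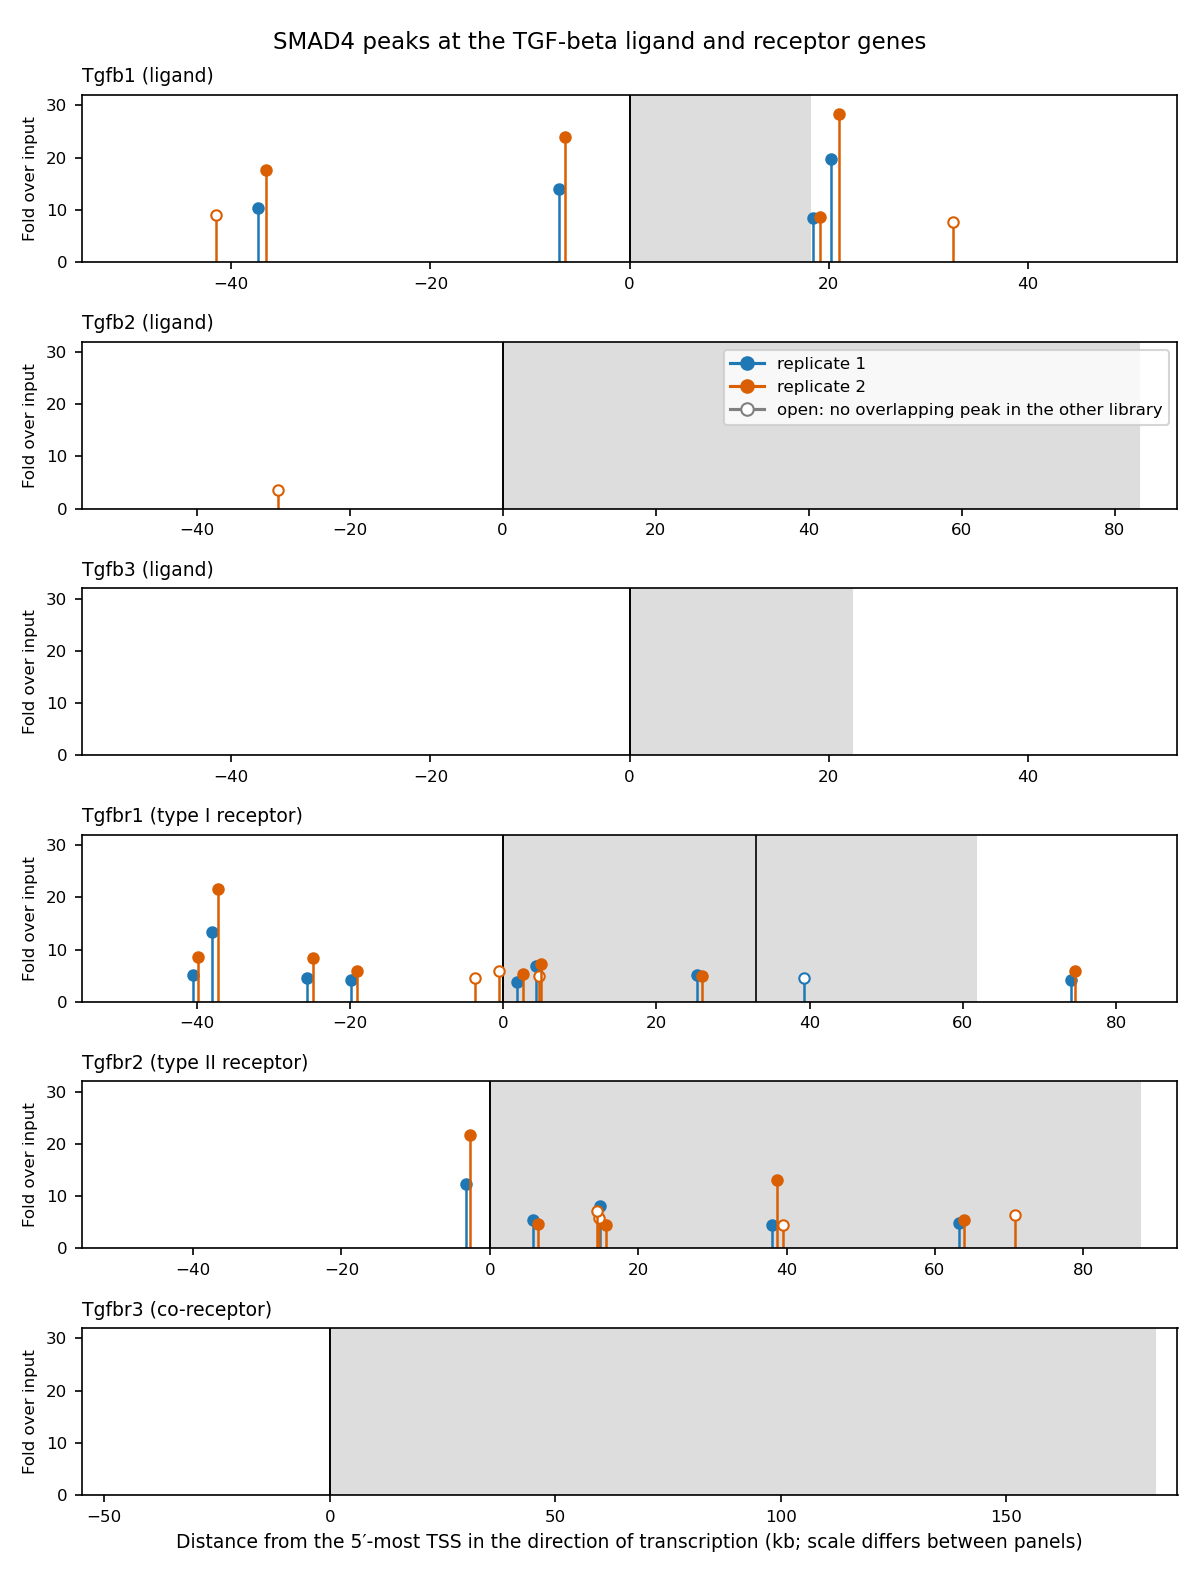
SMAD4 peaks at the 6 genes. Each stem is a peak, its height is the fold over input and its position is the summit's distance in kb from the 5′-most TSS in the direction of transcription; blue is replicate 1, orange is replicate 2 (drawn slightly to either side of the position), open circles lack an overlapping peak in the other library, grey marks the gene body and vertical lines mark TSSs. The panels of Tgfb3 and Tgfbr3 are empty, and the highest stems reach a fold of 19.8 and 28.4 past the end of Tgfb1.

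Tgfb1, Tgfbr1 and Tgfbr2, singled out here because they had shared regions, were set beside all protein-coding genes. Of those 20923 genes, 12742 had no shared region. At least 4 shared regions, the number at Tgfb1, were found at 5.83% of protein-coding genes, at least 5, the number at Tgfbr2, at 3.33%, and at least 8, the number at Tgfbr1, at 0.607%. Among the 8181 genes with at least 1 shared region, the fairer comparison, 1220 had at least 4, 696 at least 5 and 127 at least 8. The search window grows with the gene body, so the counts were also set against its length. Tgfbr1 had 6.02 shared regions per 100 kb of its 133 kb window, Tgfb1 had 4 in a 100 kb window, and Tgfbr2 had 3.63 per 100 kb of its 138 kb window. The mean over all protein-coding genes, those without a shared region included, was 0.71 per 100 kb. Tgfb1, Tgfbr1 and Tgfbr2 were picked for having shared regions, so this mean is not the fairer comparison for them. Tgfbr3, with the longest window at 233 kb, had none, and 44.9% of the protein-coding genes with a window at least as long had at least 1 shared region.

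**Figure D2:**
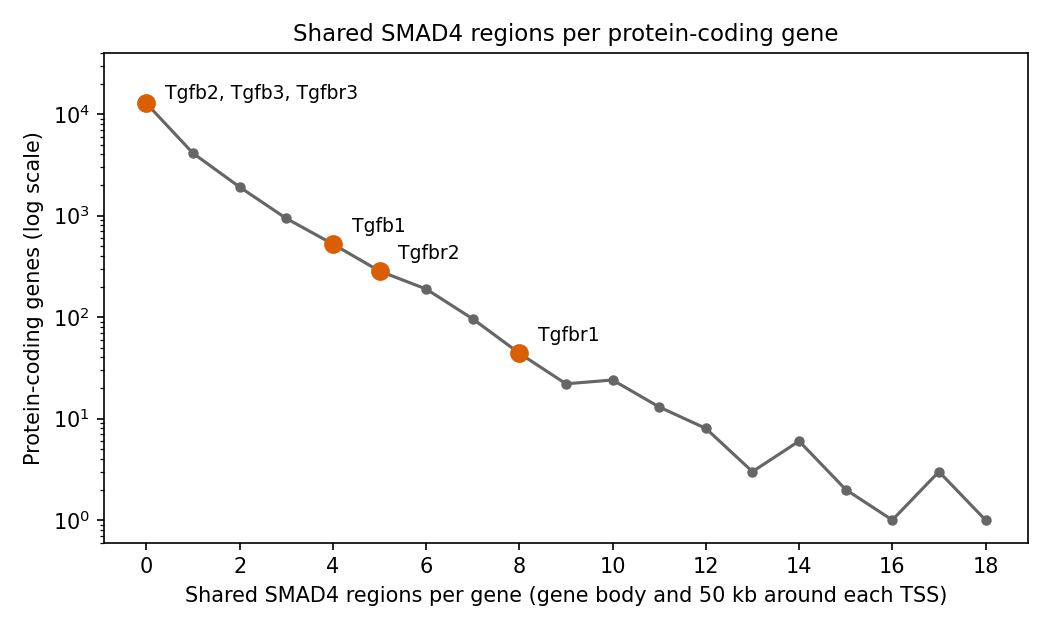
Number of shared SMAD4 regions per protein-coding gene. The x axis gives the number of shared regions in the gene body and within 50 kb of a TSS, the y axis gives the number of genes on a log scale, and orange points mark the bins that hold the 6 genes. Tgfb2, Tgfb3 and Tgfbr3 lie in the bin of 0 with 12742 genes, and Tgfbr1 lies in the bin of 8 with 44 genes.

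At each gene with shared regions, the strongest was taken by the smaller of its folds in the libraries. It had more fragments at its summits than any other region at that gene in both libraries. The sequence of mm10 within 100 bp of its centre is printed below. The centre is the midpoint of both summits, the forward strand is given, and capitals mark every match, on either strand, to 11 consensus strings: the SMAD box CAGAC, the SMAD palindrome GTCTAGAC, the GC-rich SMAD string GGCGC, the CEBP string TTGCNNAA, the ETS string AGGAAGT, the AP-1 string TGANTCA, the RUNX string TGTGGT, the STAT5 string TTCNNNGAA, the nuclear receptor string AGGTCA, the E-box CACGTG and the RBPJ string GTGGGAA. No matches overlap each other in these windows.
Tgfb1, 20.7 kb downstream of the TSS (chr7:25707554-25707754): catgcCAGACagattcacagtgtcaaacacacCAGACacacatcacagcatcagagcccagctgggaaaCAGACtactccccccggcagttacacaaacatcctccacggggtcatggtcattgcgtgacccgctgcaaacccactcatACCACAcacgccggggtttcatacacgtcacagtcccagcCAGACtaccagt
Tgfbr1, 37.7 kb upstream of the TSS (chr4:47315468-47315668): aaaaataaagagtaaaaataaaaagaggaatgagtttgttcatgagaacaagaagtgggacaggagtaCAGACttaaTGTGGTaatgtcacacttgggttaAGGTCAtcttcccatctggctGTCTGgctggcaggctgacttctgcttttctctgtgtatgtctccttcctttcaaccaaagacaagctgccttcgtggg
Tgfbr2, 2.9 kb upstream of the TSS (chr9:116178193-116178393): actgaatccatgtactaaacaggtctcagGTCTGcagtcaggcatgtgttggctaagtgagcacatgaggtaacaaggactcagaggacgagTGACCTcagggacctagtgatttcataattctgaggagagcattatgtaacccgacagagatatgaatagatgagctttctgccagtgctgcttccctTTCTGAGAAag
All of these windows hold the SMAD box. The Tgfb1 window has 4 copies, all on the forward strand, the Tgfbr1 window has 2 on opposite strands, and the Tgfbr2 window has 1. A nuclear receptor string lies 1 bp from the centre of the Tgfbr1 region and 3 bp from the centre of the Tgfbr2 region. The CEBP and ETS strings are not in these letters.

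Tgfb1 encodes TGFβ1, the main isoform made by immune cells. The gene spans chr7:25687002-25705077 on the forward strand. Its shared regions flanked the gene, and none lay inside it. The strongest, chr7:25706923-25708062, lay past the 3′ end of the gene in intergenic sequence. It reached a fold of 19.8 over input in replicate 1 and 28.4 in replicate 2, with 60 and 62 fragments at the summits. By its smaller fold it ranked 425 of 10964 shared regions, so that 3.88% were as strong or stronger, and it was the only one of the 17 regions in the top 10% of the genome. A weaker region was centred 1.9 kb closer to the gene, within 1 kb past its 3′ end (chr7:25705711-25706108), with folds of 8.45 and 8.57 and 25 and 18 fragments. The upstream regions were 6.7 kb from the TSS, with folds of 14.0 and 23.9 and 42 and 52 fragments (chr7:25679863-25680732), and 37.0 kb from it, with folds of 10.4 and 17.6 and 31 and 38 fragments (chr7:25649778-25650287).

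None of the 4 regions had the Tgfb1 TSS as its nearest. The region 6.7 kb upstream was centred 513 bp upstream of the TSS of B9d2 and lay in that gene's promoter (taken as 1 kb upstream to 100 bp downstream of a TSS). The region 37.0 kb upstream was in intron 1 of Bckdha, 8719 bp from its TSS. Both downstream regions were closest to the TSS of Ccdc97, at 13.3 kb for the weaker region and 11.4 kb for the strongest. The peaks of replicate 2 without a partner were also nearest to other genes: a peak with a fold of 9.02 and 19 fragments, 41.9 kb upstream, lay in the same Bckdha intron, and a peak with a fold of 7.67 and 16 fragments, 32.1 kb downstream, lay 38 bp upstream of the Ccdc97 TSS. Assignment by the closest TSS alone would therefore give Tgfb1 no peak.

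Tgfb2 and Tgfb3 encode the other ligand isoforms, best known from embryonic development and from epithelial and stromal cells. At Tgfb2 (chr1:186622792-186705989, reverse strand) the only peak was in replicate 2, 29.7 kb upstream of the TSS in intron 4 of Rrp15 (chr1:186735651-186735769). It had 9 fragments at its summit over a control level of 1.85 and a fold of 3.51, and 99.4% of the peaks in that library had a fold at least as high. Replicate 1 had no peak closer than 199.9 kb to this TSS, and the closest shared region was 208.2 kb away. At Tgfb3 (chr12:86056743-86079041, reverse strand) the closest peaks were 98.8 kb from the TSS in replicate 1 and 88.5 kb in replicate 2. The peak of replicate 1 belonged to a shared region, 98.9 kb downstream of the TSS, with folds of 4.87 and 4.06 and 14 and 8 fragments. That region had Tgfb3 as its nearest TSS, but it is outside the limit of 50 kb.

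Tgfbr1 encodes the type I receptor kinase, also called ALK5. The gene spans chr4:47353222-47414924 on the forward strand and has a second curated TSS within the gene. Its 8 shared regions comprised 4 upstream of the gene, 3 inside it and 1 past its 3′ end, and all had a Tgfbr1 TSS as their nearest among curated transcripts. The strongest was an intergenic region 37.7 kb upstream (chr4:47315331-47315952), with folds of 13.3 and 21.7 and 40 and 47 fragments. A weaker region lay 2.5 kb farther from the gene, in exon 40 of Col15a1, a collagen gene (chr4:47312735-47313138), with folds of 5.20 and 8.57. The intergenic regions at 25.2 kb and 19.5 kb upstream had folds of 4.59 and 8.37, and of 4.18 and 5.87.

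Inside Tgfbr1, all 3 shared regions were in intron 1 of the longer transcripts. The one 4.6 kb downstream of the 5′-most TSS had folds of 6.82 and 7.22 with 20 and 15 fragments (chr4:47357689-47358077). The one at 2.2 kb was the weakest of the 17, with folds of 3.90 and 5.41 and 11 fragments in each library (chr4:47355315-47355490), and 94.9% of all shared regions were as strong or stronger. The one at 25.6 kb, which lies 7.4 kb upstream of the internal TSS, had folds of 5.20 and 4.96 (chr4:47378757-47378993). The region past the gene, 74.4 kb from the 5′-most TSS, had folds of 4.18 and 5.87. Peaks without a partner were 1 in replicate 1, in the intron 6.6 kb past the internal TSS with a fold of 4.55 and 13 fragments, and 3 in replicate 2. One of the latter was the only peak in the promoter of any of the 6 genes: 889 bp upstream of the TSS, with 12 fragments and a fold of 5.87 (chr4:47352234-47352358). Replicate 1 listed no peak there. A peak of replicate 2 in the promoter was found at 6.50% of protein-coding genes. None of the 6 genes had a shared region in its own promoter, as was also the case for all but 3.10% of protein-coding genes.

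Tgfbr2 encodes the type II receptor, the kinase that binds ligand first. The gene spans chr9:116087695-116175363 on the reverse strand, and all of its 5 shared regions had its TSS as their nearest among curated transcripts. With predicted transcripts included, this held for 1 of the 5, the region 6.1 kb downstream. The strongest lay 2.9 kb upstream of the TSS (chr9:116178084-116178700), with folds of 12.3 and 21.7 and 37 and 47 fragments, and 13.9% of all shared regions were as strong or stronger. The other 4 lay in introns. Their folds ranged from 4.55 to 8.22 in replicate 1 and from 4.56 to 13.1 in replicate 2. At least 1 shared region with its own TSS as the nearest was found for Tgfbr1 and Tgfbr2 and for none of the other 4 genes, against 20.0% of protein-coding genes.

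The libraries gave different strengths at some of the intronic Tgfbr2 regions. At 38.4 kb downstream of the TSS (chr9:116136816-116137106), replicate 1 had 13 fragments and a fold of 4.55, and replicate 2 had 28 fragments and a fold of 13.1. At 15.3 kb (chr9:116159871-116160265) the order was the opposite, with 33 fragments and a fold of 8.22 in replicate 1 and 12 fragments and a fold of 4.56 in replicate 2. The control level at this site was above the genome-wide background in both libraries, at 3.14 against 2.08 fragments in replicate 1 and 1.85 against 1.22 in replicate 2. Replicate 2 alone also listed peaks 14.1 kb and 14.4 kb from the TSS, with 15 and 12 fragments at the background control level. The regions at 6.1 kb and 63.6 kb had folds of 5.52 and 4.60, and of 4.87 and 5.41.

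**Figure D3:**
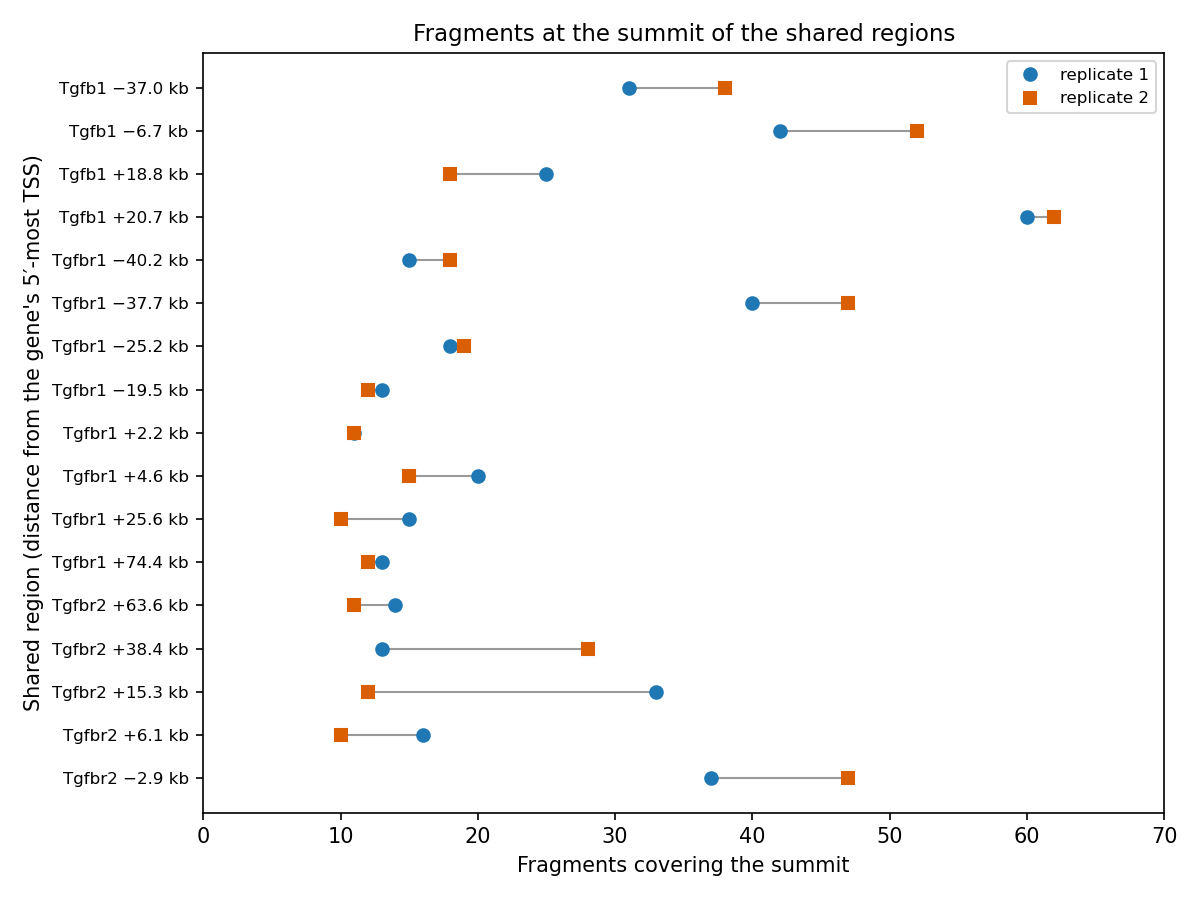
Fragments at the summit of the 17 shared regions. The x axis counts fragments that cover the summit, each line is a region named by its gene and its distance from the 5′-most TSS, blue circles are replicate 1 and orange squares replicate 2. A region of Tgfb1 stands highest with 60 and 62 fragments, and the widest gaps between libraries are at the Tgfbr2 regions 15.3 kb and 38.4 kb from the TSS.

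Tgfbr3 (chr5:107106567-107289629, reverse strand) had no peak along its 183 kb body or around its TSS. The closest peaks to the TSS were 297.8 kb away in both libraries and formed 1 shared region, with folds of 8.45 and 12.6 and 25 and 27 fragments, whose nearest TSS was that of Cdc7. A peak list holds only sites past the caller's limit. The weakest peaks of the lists had 9 fragments in replicate 1 and 7 in replicate 2, so that binding under about this level at Tgfb2, Tgfb3 or Tgfbr3 was not detectable at this depth. In a population of cells, binding in few cells and weak binding in all of them cannot be told apart.

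Of the peaks at the 6 loci, 17 of 18 in replicate 1 had an overlapping peak in replicate 2 (94.4%, exact Clopper-Pearson 95% interval 72.7% to 99.9%), and the share over the whole list was 69.4%. In replicate 2, 17 of 27 had a partner (63.0%, interval 42.4% to 80.6%), and the share over the whole list was 59.2%. The intervals cover counting error only, and the peaks at a locus share their libraries. The 10 unpartnered peaks of replicate 2 had 9 to 19 fragments and folds of 3.51 to 9.02. Within the shared regions the summits of both libraries lay 0 to 110 bp apart, with a median of 42 bp, against 49 bp over all shared regions.

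By fold, most of the 17 regions were below the median of all shared regions. Their median smaller fold was 4.96, against 6.50 over all shared regions, 7 of the 17 were above that median, and 9 were at or under the lower quartile of 5.07. Fold was higher in replicate 2 at 14 of the 17 regions and in 87.2% of all shared regions, and the median ratio of replicate 2 to replicate 1 was 1.40 at these loci and 1.39 over all. The genome-wide control level was lower in replicate 2, at 1.22 against 2.08 fragments, and its part in the higher folds was not tested. In fragments, which do not depend on the control level, the medians at these loci were 18 in both libraries, against 20 and 21 over all shared regions in replicates 1 and 2. The control level was above the genome-wide background in at least 1 library at 5 of the 17 regions, namely those of Tgfbr1 25.2 kb and 19.5 kb upstream and 74.4 kb downstream, and those of Tgfbr2 at 6.1 kb and 15.3 kb.

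**Figure D4:**
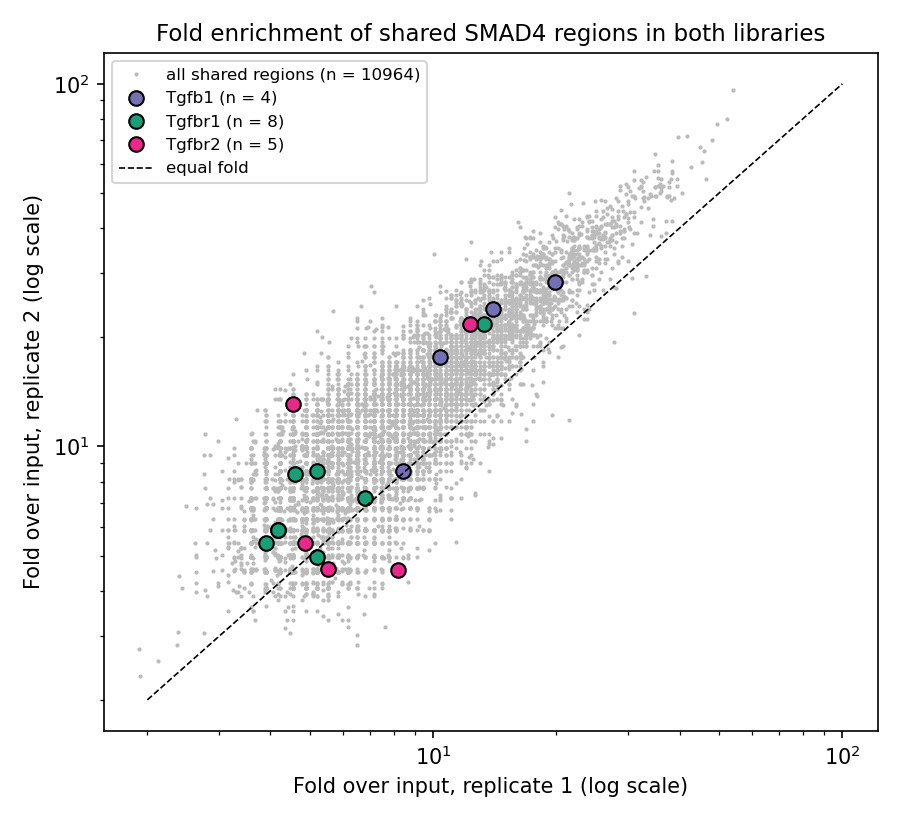
Fold over input of each shared region in replicate 1 (x axis) and replicate 2 (y axis), both on log scales. Grey points are all 10964 shared regions, coloured points are the regions of Tgfb1, Tgfbr1 and Tgfbr2, and the dashed line marks equal folds; 2 Tgfbr1 regions with folds of 4.18 and 5.87 coincide. Of the 17 regions, 14 lie above the line and 1, at Tgfbr2, lies farthest below it with folds of 8.22 and 4.56.

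The sequence around the centres was then compared with that of all shared regions, in windows of 100 bp each side. The SMAD box, which is short and frequent, was in 10 of 17 windows (58.8%) and in 38.8% of all windows. The GC-rich SMAD string and the SMAD palindrome were in none of the 17, and in 5.24% and 0.465% of all windows. The nuclear receptor string was in 4 of the 17 (23.5%, against 15.4%), the RUNX string in 4 (23.5%, against 26.4%), the AP-1 string in 2 (11.8%, against 12.3%), the STAT5 string in 2 (11.8%, against 8.06%), the RBPJ string in 1 (5.88%, against 4.14%) and the E-box in none (against 3.65%). The median GC content was 43.8% both at these loci and over all regions, and no window was more than 50% repeat-masked, against 4.13% of all windows. With 17 regions at 3 genes these shares are descriptions, and nothing was tested from them.

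The strings of the macrophage and AM factors CEBP and ETS (the family of PU.1 and ELF5) were in 4 and 3 of the 17 windows (23.5% and 17.6%), and in 40.9% and 20.4% of all windows. They were in weaker regions than those printed above. Each is printed here with 8 bases of context on either side, on the strand that matches the string, with the string in capitals, to show how the sites differ from each other.
CEBP, Tgfbr1 40.2 kb upstream (chr4:47313017-47313040, reverse strand): ttcaaggcTTGCCAAAtggaaatc
CEBP, Tgfbr1 25.2 kb upstream (chr4:47328053-47328076, forward strand): ctggttagTTGCTCAAtaaataga
CEBP, Tgfbr1 74.4 kb downstream (chr4:47427543-47427566, reverse strand): atcatctaTTGCTTAAgggcaggg
CEBP, Tgfbr2 63.6 kb downstream (chr9:116111770-116111793, forward strand): aggcttccTTGCCTAAgaccatta
CEBP, Tgfbr2 63.6 kb downstream (chr9:116111821-116111844, forward strand): cataacagTTGCAAAAacacagtc
ETS, Tgfb1 18.8 kb downstream (chr7:25705823-25705845, forward strand): ccacaagaAGGAAGTggaatcag
ETS, Tgfbr1 19.5 kb upstream (chr4:47333672-47333694, reverse strand): agtgaacaAGGAAGTccagggcc
ETS, Tgfbr1 19.5 kb upstream (chr4:47333690-47333712, reverse strand): caacatctAGGAAGTgagagtga
ETS, Tgfbr2 6.1 kb downstream (chr9:116169167-116169189, forward strand): ccagggtcAGGAAGTacagtttc
The CEBP strings were confined to the receptor genes among the 17 regions. The closest to a centre, at 8 bp and 9 bp, were those in the Col15a1 exon upstream of Tgfbr1 and the first of the pair in the Tgfbr2 intron. The ETS strings were all more than 50 bp from the centre.

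The peaks on either side of the 50 kb limit were as follows. At Tgfb1 the outermost peaks inside were 37.0 kb and 41.9 kb from the TSS in replicates 1 and 2, and the first outside were at 54.2 kb and 54.0 kb, with folds of 5.20 and 11.3 and B3gnt8 as the nearest TSS. At Tgfbr1 the outermost inside were at 41.4 kb and 41.3 kb, and the first outside at 80.4 kb and 88.0 kb. At Tgfbr2 the first outside the gene and the limit were at 96.0 kb and 90.6 kb, past the 3′ end.

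The other genes of the pathway were searched by the same rule, in lists by role. Of 11 other type I, type II and co-receptor genes of the superfamily, 7 had a shared region, and only Acvr1, with 2, had more than 1. Receptors without one were Acvr2b, Bmpr1b, Bmpr2 and Eng. Of 12 genes for storage and activation of latent TGFβ, 5 had one: Furin, the protease that cleaves the propeptide, had 6, the strongest with folds of 16.6 and 27.1, Mmp14 had 4, Ltbp1 and Nrros, whose products hold latent TGFβ in matrix and on myeloid cells, had 2 each, and Ltbp2 had 1. Among the 8 SMAD genes, 6 had 1 or 2 shared regions, and Smad5 and Smad9 had none. Smad1, which carries BMP signals as these do, had 1, with folds of 5.85 and 14.4. Of 8 feedback inhibitors and corepressors, 6 had one, with 4 at Skil and 2 at Ski, the strongest of which had folds of 20.5 and 34.3, and Bambi and Pmepa1 had none. Position alone assigns these regions, and some lay nearest to another gene's TSS. At Furin 3 of 6 were nearest to its own TSS and at Mmp14 1 of 4, while at Skil and Ski all were. Genes with at least 1 shared region nearest to their own TSS were 2 of the 11 receptors and 4 of the 12 latent TGFβ genes. They were 4 of the 8 SMADs and 5 of the 8 inhibitors and corepressors. No list is compared here with chance. For each, 39.1% of all protein-coding genes had a shared region, and 20.0% had 1 nearest to their TSS.

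Shared regions were also counted at genes typical of the labelled cell type. All 7 genes typical of AMs had one, against 39.1% of protein-coding genes. The number ran from 1 at Ear1 to 11 at Pparg, the nuclear receptor that directs AM differentiation. Each of the 7 had at least 1 region nearest to its own TSS, but at Siglecf this held for 1 of 3 and at Itgax for 2 of 4. Of the genes typical of other lung cells, Sftpc (alveolar type II cells), Cdh5 (endothelium), Col1a2 (fibroblasts) and Cd3e (T cells) had none. These counts describe binding near genes and do not establish the cell type, and no RNA was measured in this series.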

How the data were processed

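HT-ChIPmentation of SMAD4 and input libraries was performed by the authors on sorted AMs. They trimmed reads with Cutadapt (1.7.1), aligned them with Bowtie2 to mm10, removed duplicates, kept high-quality pairs with samtools (0.1.18), and called peaks in each SMAD4 library with MACS3 (3.0.0a5) against input at a q-value of 0.05. Each deposited peak carries the position of its summit and, for that base, the fold ratio to control and the −log10 of p and of q, plus a score that was left aside. The deposited lists are 1 per SMAD4 library, and no consensus set was used here.

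The whole number of fragments at each summit and the control level were solved from the deposited fold and −log10 p, which matched within 0.00054; the procedure, the overlap and the gene rule were checked on simulated data. Total reads per library were not used here, although the study provides sequencing quality metrics, so depth is described by these fragments. Peaks of both lists overlapping by 1 bp were merged into shared regions. Gene models were 45657 curated RefSeq transcripts of GRCm38 (mm10), whose chromosomes contained all peaks, and positions are 1-based. Strings were searched on both strands of the RefSeq genome. Genes named with full values were all 6 members, with their promoter regions, strongest region and regions nearest to their own TSS; members without a region are given by the closest peak; genes of the other pathway lists are named where 5 or fewer had, or lacked, a shared region, and others named there were chosen after their values were seen. There is 1 condition with 2 SMAD4 libraries, so no test between groups was made. The members and lists were chosen with earlier results of these data known. The result for 1 gene of the list for other lung cells is not reported here. Alternatives covered the distance limit, transcript set, q-value, fold, overlap rule, library and window. Analyses used pandas 2.3.3, scipy 1.17.1, numpy 2.4.6 and pysam 0.24.0 under Python 3.11.15.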

Additional observations from a re-analysis of the deposited data

How the results depend on the processing

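Of 48 alternative values, 33 stayed within 1.5 times the reported value. With a limit of 10 kb in place of 50 kb, replicate 1 had 10 peaks and replicate 2 had 16 at the 6 loci, there were 9 shared regions, 8 of them nearest to a TSS of one of the genes, and 20.6% of protein-coding genes had a shared region. With 100 kb, replicate 2 had 41 peaks, 54.9% of protein-coding genes had a shared region, and Tgfb3 gained its only region. With a minimum fold of 5, replicate 1 had 11 peaks, and there were 8 shared regions (4 at Tgfb1, 3 at Tgfbr1 and 1 at Tgfbr2), 4 of them nearest to a TSS of one of the genes. With predicted RefSeq transcripts included, 4 of the 17 regions rather than 13 had a Tgfbr1 or Tgfbr2 TSS as their nearest; predicted genes with Gm names took the others. From single libraries, the regions numbered 18 to 27 and those nearest to a TSS of one of the genes 14 to 20, with the higher values from replicate 2, where Tgfb2 also had a peak. The number of genes with a region was 3 or 4 under every alternative. Windows of 50 bp and 200 bp each side gave 0 and 5 of the 17 regions with the ETS string (0% and 29.4%), against 12.2% and 27.9% of all shared regions. For the SMAD box they gave 6 and 11 (35.3% and 64.7%), against 21.9% and 62.2%, so the difference was small at 200 bp. For the CEBP string they gave 4 and 4 (23.5% in each), against 28% and 49.7%, so the difference was small at 50 bp. No paired analysis was possible because the labels give the libraries no replicate numbers (those used here follow accession order and pair nothing) and values of the SMAD4 libraries alone were analysed. With 10 to 62 fragments at a summit, weak regions rest on few fragments.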
